A study of Mus musculus with 4 samples.

Results

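*Ihh*, *Pthlh* and *Pth1r* are the 3 genes of the Indian hedgehog and PTHrP loop of growing cartilage. They were taken by symbol from the 32288 features of single-cell libraries of mouse hindlimbs at E14.5, and each symbol matched 1 feature. There were 4 libraries from 10x Chromium: S1 and S3 held cells that carried tdTomato (tdT positive) and S2 and S4 held cells that did not (tdT negative), with S1 and S2 from collection 1 and S3 and S4 from collection 2. Every embryo was Gli1CreER/+, R26LSL-tdTom/+ and TigreTRE-p21/+. Pan-Cart-p21MOE embryos also carried Col2a1-rtTA, which with doxycycline drives p21, an inhibitor of the cell cycle, in cartilage. Embryos without Col2a1-rtTA were the controls. All embryos were given doxycycline from E12.5 (1 mg/ml in the water, and in food) and tamoxifen at E13.5 (120 µg/g by gavage), which marks cells that expressed *Gli1* and their descendants.

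By the study's methods each library joined Pan-Cart-p21MOE cells of one sex with control cells of the other: males with control females in S1 and S2, females with control males in S3 and S4. Condition was therefore read from *Xist* and 4 Y-linked genes in each cell, which left 2855 cells (1834 Pan-Cart-p21MOE and 1021 control) in 22 clusters, of which 942 cells in 5 clusters were chondrocyte-like. The tdT positive and tdT negative cells of a pool came from the same embryos, so the 4 values per condition stand for 2 embryo pools. The methods list a single embryo for the female Pan-Cart-p21MOE pool, although the study's results text gives more, and p-values measure the spread between these summed samples only.

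In the growth plate, prehypertrophic and early hypertrophic chondrocytes secrete Indian hedgehog, which acts on neighbouring chondrocytes and on the perichondrium, where it drives bone formation. PTHrP, the product of *Pthlh*, is secreted near the ends of the cartilage and is induced by hedgehog signalling. It binds PTH1R, a receptor that signals mainly through Gs and cyclic AMP, and holds chondrocytes in the proliferating state, which delays the onset of *Ihh*. PTH1R is also the receptor for parathyroid hormone in cells of the bone lineage.

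All 3 genes lie on the minus strand of GRCm38: *Ihh* at chr1:74945315-74951672, *Pthlh* at chr6:147252101-147264183 and *Pth1r* at chr9:110722085-110747145. Promoter windows of RefSeq (GRCm38.p6) matched all 3 members, with 1 window for *Ihh*, 1 for *Pthlh* and 3 for *Pth1r*. The 250 bases before each start were searched on both strands for motifs of factors tied to this loop: RUNX (TGTGGT and TGCGGT), GLI (TGGGTGGTC), MEF2 (CTAAAAATA) and the cyclic AMP response element (TGACGTCA). The only matches were TGCGGT once before *Ihh*, 40 to 45 bases upstream of the start, and CTAAAAATA once before the third *Pth1r* start. Of all 32851 windows of this length, 5.1% held TGCGGT and 0.469% held CTAAAAATA. The letters TGTGGT (14% of windows), TGGGTGGTC (0.225%) and TGACGTCA (1.55%) were in none of the members' windows. The 2 stretches with a match are shown 5′ to 3′ because these are the genes that were highest in the same cells in what follows, with the match in capitals. The *Ihh* stretch, chr1:74951673-74951922, lies outside annotated genes, and the *Pth1r* stretch, chr9:110742720-110742860, lies in an intron of longer *Pth1r* transcripts, within *Myl3* on the other strand, and is cut where the first annotated exon begins. A match is a description of the letters only.
Ihh: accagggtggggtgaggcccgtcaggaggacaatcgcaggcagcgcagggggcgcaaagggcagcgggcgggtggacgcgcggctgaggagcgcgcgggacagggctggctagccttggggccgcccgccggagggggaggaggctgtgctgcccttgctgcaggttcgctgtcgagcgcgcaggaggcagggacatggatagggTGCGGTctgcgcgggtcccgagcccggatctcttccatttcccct
Pth1r: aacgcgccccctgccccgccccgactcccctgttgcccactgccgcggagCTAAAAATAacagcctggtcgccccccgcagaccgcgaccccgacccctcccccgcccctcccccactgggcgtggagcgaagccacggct

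The libraries held 11945062 to 39435830 UMIs, and kept cells had medians of 17333.5 to 27554.5 UMIs. In the chondrocytes, *WPRE*, an RNA-stabilising element counted with the transgenes, was higher in Pan-Cart-p21MOE cells (log2 difference 2.42 ± 0.400 SE, adjusted p = 0.0386, edgeR), and *tdt* was higher in the tdT positive fraction (3.89 ± 0.377 SE, adjusted p = 0.00252). *Cdkn1a*, the mouse gene for p21, differed by 0.23 ± 0.265 SE (adjusted p = 0.865). The paper states that reads of both the p21 and the tdTomato transgenes fall mostly on *WPRE*, so the *Cdkn1a* count may miss the p21 transgene. The unnamed cluster 18, led by *Cdkn1a*, held 38 Pan-Cart-p21MOE cells and 1 control cell, and 36 of its 39 cells were from S4. It was not among the chondrocytes tested. The chondrocyte markers *Col2a1*, *Col9a1*, *Acan* and 5 others summed to 13044 to 17754 UMIs per 1000000 (CPM) in every summed chondrocyte sample. Markers of immune, erythroid, epidermal and muscle cells stayed at or below 23.7 CPM there. The endothelial and glial lists summed to 58.4 to 206 and 34.0 to 74.2 CPM. Pairs of libraries shared 3 to 12 barcodes, at most 1 of them among kept barcodes.

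*Ihh* was highest in the hypertrophic-like cluster, at 205 ± 13.1 CPM (SD, n = 3 libraries). The members were kept out of the clustering and of the marker lists, and levels by class are a description with no test. The hypertrophic-like cells, 91 in all, were named from *Col10a1*, the collagen of hypertrophic cartilage, *Panx3*, *Spp1* and *Smpd3*. Their *Ihh* level was 193 CPM in S2, 202 in S3 and 219 in S4, and S1 held 2 such cells and has no value. Every one of these values was above the highest value of any other class. Next came the proliferative-like chondrocytes at 27.2 ± 19.8 CPM (SD, n = 4), with a range of 7.36 to 51.2, the osteoprogenitor-like cells at 12.9 ± 11.8 (n = 3) and the resting-like chondrocytes at 8.27 ± 4.86 (n = 4). Those 3 classes overlapped from library to library. Interzone-like, perichondrium-like, tenocyte-like and limb mesenchyme-like cells were all at 0.670 to 2.38 CPM.

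The hypertrophic-like cluster was 3.19% of all cells and held 43.4% of the 1300 *Ihh* UMIs, and the proliferative-like chondrocytes held 38.5%. The resting-like chondrocytes held 5.85%. Within the hypertrophic-like cluster 64 of 91 cells had at least 1 *Ihh* UMI, with a median of 4 and a highest value of 48 in those cells. Barcodes under 1000 UMIs, which may hold RNA from outside cells or cells of low quality, had 7.27 to 29.5 CPM of *Ihh* in the 4 libraries. Which of these they hold was not tested, and they are called low-UMI barcodes here. Outside cartilage and bone cells, the highest *Ihh* values were 36.9 CPM in the endothelial-like and 30.6 in the muscle-like cells of S4, whose low-UMI barcodes held 22.0 CPM. Those endothelial-like cells, 14 in number, also held the hypertrophic marker *Panx3* at 120 CPM.

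*Pthlh* was highest in the interzone-like cells, the *Gdf5*-expressing cells of the forming joint, at 44.3 ± 13.04 CPM (SD, n = 4). The library values were 62.1 in S1, 45.7 in S2, 36.0 in S3 and 33.3 in S4. The lowest of them was above the highest value of the next class, the unnamed cluster 11 at 19.9 ± 7.85 CPM. Resting-like chondrocytes followed at 17.1 ± 8.36, and neighbouring classes from cluster 11 down to the limb mesenchyme-like cells (6.11 ± 2.59) overlapped. Hypertrophic-like cells were the lowest named class with 3 libraries, at 1.35 ± 1.32 CPM, next to the osteoprogenitor-like cells at 1.83 ± 1.92. The library values of both lay below all those of the limb mesenchyme-like cells.

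The source of *Pthlh* was spread over more cells than that of *Ihh*. Of 894 *Pthlh* UMIs, the proliferative-like chondrocytes held 17.9%, the resting-like chondrocytes 15.3% and the interzone-like cells 15.2%, the last from 5.25% of the cells. In the interzone-like class 65 of 150 cells had a *Pthlh* UMI, with a median of 1 and a highest value of 10, and in the hypertrophic-like class 4 of 91 did. The low-UMI barcodes had 7.93 to 15.2 CPM of *Pthlh*, a level that the interzone-like cells exceeded in every library. The proliferative-like chondrocytes (7.07 to 14.7 CPM) exceeded it in S3 alone, at 14.7 against 10.9 CPM. Hypertrophic-like cells, at most 2.64 CPM, lay below it, so it is not a lower bound for kept cells.

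*Pth1r* was highest in 2 classes, the hypertrophic-like chondrocytes at 463 ± 172 CPM (SD, n = 3) and the osteoprogenitor-like cells at 419 ± 174 (n = 3). The osteoprogenitor-like cells, 54 in all, were named from *Sp7*, a transcription factor that osteoblasts need, and *Ibsp*, a protein of bone matrix. In the hypertrophic-like cells *Pth1r* was 383 CPM in S2, 345 in S3 and 660 in S4, and in the osteoprogenitor-like cells it was 482 in S1, 552 in S3 and 222 in S4. These ranges overlapped each other and lay above the proliferative-like chondrocytes at 72.1 ± 22.9 CPM (n = 4), whose highest value was 94.1. The endothelial-like cells of S4 were at 182 CPM. From there on 10 classes with values in 3 or more libraries lay between 56.2 and 27.0 CPM, with the interzone-like cells lowest at 27.0 ± 2.60. The plot of levels by class gives the library values behind these means.

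**Figure D1:**
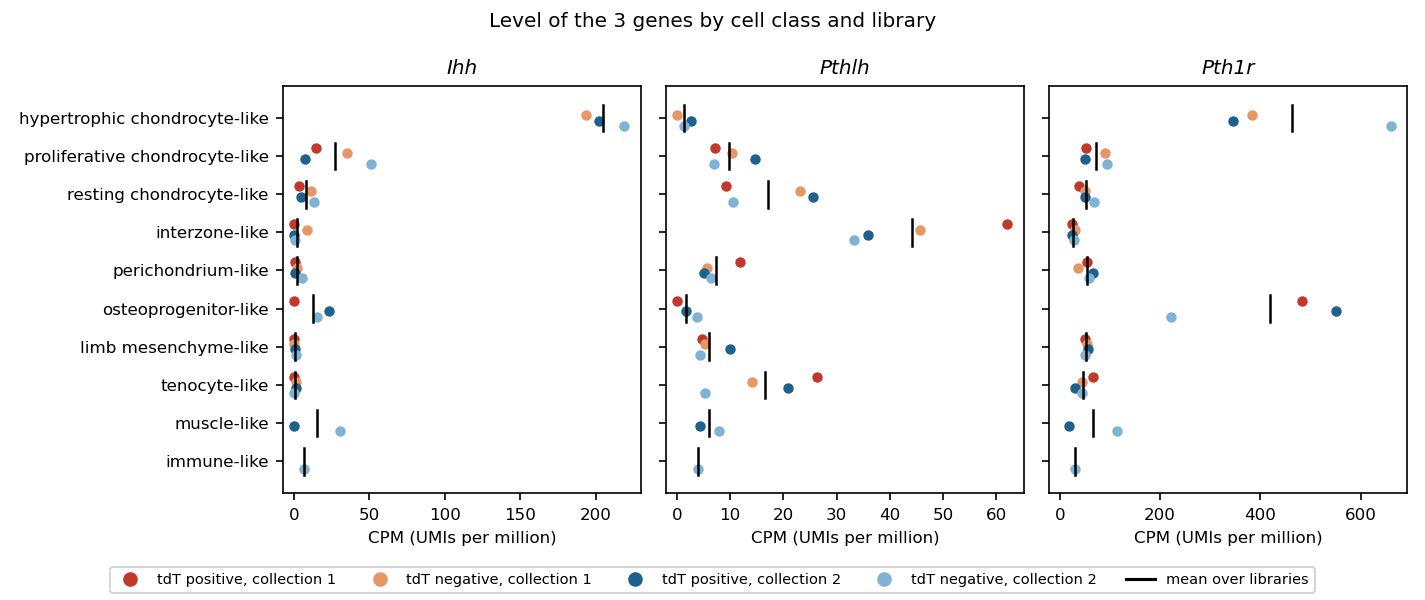
Level of *Ihh*, *Pthlh* and *Pth1r* in CPM (x axis) in 10 named classes (y axis), with 1 point per library of at least 5 cells and a line at the mean. *Ihh* stands apart in the hypertrophic-like cells (193 to 219 CPM), *Pthlh* in the interzone-like cells (33.3 to 62.1 CPM) and *Pth1r* in the hypertrophic-like and osteoprogenitor-like cells (222 to 660 CPM).

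Of 5930 *Pth1r* UMIs, the hypertrophic-like cells held 24.4%, the proliferative-like chondrocytes 20.5%, the perichondrium-like cells 8.87% and the osteoprogenitor-like cells 8.58%. *Pth1r* was found in 53 of 54 osteoprogenitor-like cells and in 76 of 91 hypertrophic-like cells, where the highest cell had 121 UMIs. The low-UMI barcodes held 55.2 to 102 CPM of *Pth1r*, a range that most other classes, the resting-like chondrocytes included (51.6 ± 12.0 CPM), did not exceed.

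After each cell was thinned to 5000 UMIs, which makes shares comparable across depths, *Pth1r* was found in 77.0% of hypertrophic-like cells (57 of 74, exact 95% interval 65.8 to 86.0%, counting error only) and in 75% of osteoprogenitor-like cells (30 of 40, 58.8 to 87.3%). The immune-like and muscle-like cells, which should lack it, had shares of 16.7% and 16.4% at median depths of 12970 and 25661 UMIs before thinning, against 19003.5 and 24999 in the hypertrophic-like and osteoprogenitor-like cells. The resting-like share of 20.1% and the interzone-like share of 15.3% were close to those shares. *Ihh* was found in 54.1% of hypertrophic-like cells (40 of 74, 42.1 to 65.7%), 6.18% of proliferative-like, 3.66% of resting-like and 0.694% of interzone-like cells, beside 5.56% of immune-like cells. *Pthlh* was found in 18.1% of interzone-like cells (26 of 144, 12.1 to 25.3%), 7.32% of resting-like, 5.97% of proliferative-like and 2.70% of hypertrophic-like cells, beside 2.78% of immune-like cells. In the osteoprogenitor-like cells *Pthlh* was found in 0 of 40 cells, which allows a share of up to 7.5% (exact upper bound 8.81%), and without thinning in 2 of 54.

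Inside the chondrocytes the proliferative-like class was made of 2 clusters that differed in all 3 genes. Cluster 7 was led by *C1qtnf3*, *Epyc*, *Matn3* and *Matn1*, genes of the columnar cartilage matrix, and cluster 2 by *Sorbs2os*, *Lrp1b* and *Edil3*. *Ihh* was 27.9 CPM in S1, 65.3 in S2, 20.2 in S3 and 91.9 in S4 in cluster 7, and 1.45 to 5.16 CPM in cluster 2. The cluster 7 values were above those of the low-UMI barcodes in every library. *Pth1r* was 65.8 CPM in S1, 123 in S2, 75.2 in S3 and 143 in S4 in cluster 7, and 37.4 to 54.8 in cluster 2. *Pthlh* had the opposite order, with 12.0 to 19.5 CPM in cluster 2 and 1.11 to 4.42 in cluster 7. In each case the library ranges of the 2 clusters did not overlap.

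The 2 resting-like clusters also differed. Cluster 4, led by *Hes5*, *Cytl1* and *Barx1*, had *Pthlh* at 14.53 CPM in S1, 32.9 in S2, 26.6 in S3 and 14.03 in S4. Cluster 9, led by *Cytl1* and *Snorc*, had 4.26, 5.65, 22.6 and 6.88 CPM in the same order, below cluster 4 in each library. *Ihh* in cluster 9 was 24.5 and 22.5 CPM in the tdT negative libraries S2 and S4 and 5.68 and 5.21 in S1 and S3, close to the level of the low-UMI barcodes in all 4, and in cluster 4 it was 1.45 to 4.68. The plot of the 5 chondrocyte clusters shows *Ihh* and *Pth1r* high in clusters 7 and 13 and *Pthlh* high in clusters 4 and 2.

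**Figure D2:**
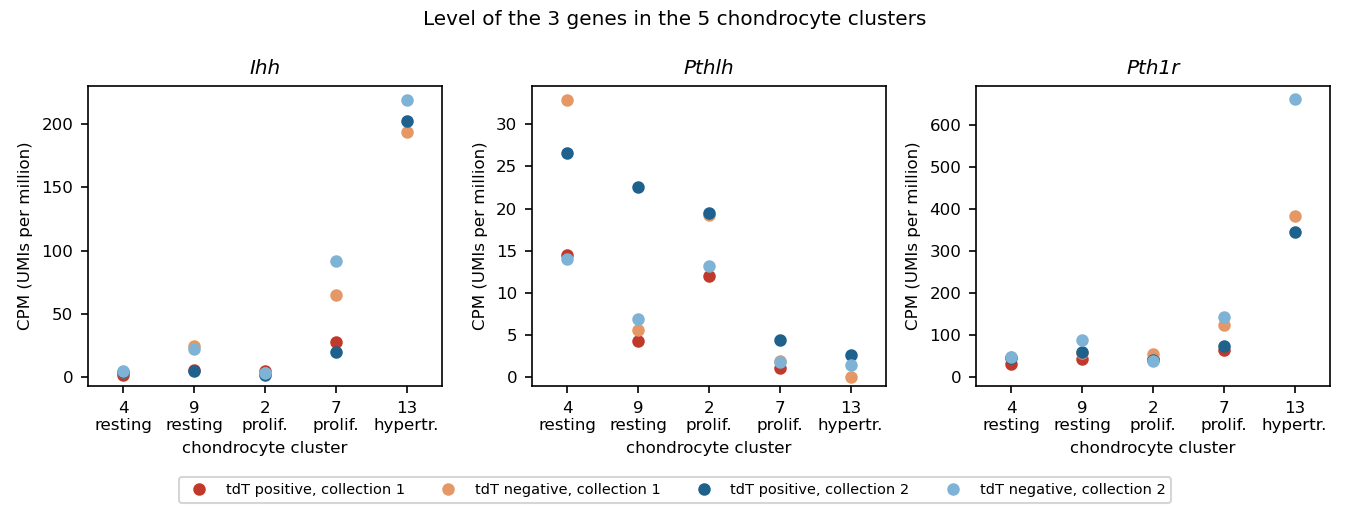
Level of each gene in CPM (y axis) in the 5 chondrocyte clusters (x axis), with 1 point per library of at least 5 cells. *Ihh* in cluster 7 runs from 20.2 to 91.9 CPM, between cluster 2 (at most 5.16) and the hypertrophic-like cluster 13 (193 to 219), while *Pthlh* in cluster 7 is at most 4.42 CPM.

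Over the 22 clusters, the log2(CPM + 1) level of *Ihh* had r = 0.771 with *Pth1r* and r = −0.709 with *Pthlh*, and *Pthlh* had r = −0.751 with *Pth1r*. The clusters share libraries and some differ in depth, so these are descriptions. Among 13307 genes, those most like *Ihh* were *Smim5* (r = 0.919), *Panx3* (0.908), *Comp* (0.868), *Pcolce2* (0.848) and *Cox17* (0.829). *Panx3*, a channel protein of hypertrophic cartilage and bone, was itself one of the markers that named cluster 13. It was also the gene most like *Pth1r* (r = 0.877), followed by *Hrc* (0.840), *Smim5* (0.823), *Smpd3* (0.815) and *Ifitm5* (0.804). The level of *Panx3* was 355 ± 10.9 CPM in cluster 13 and 132 ± 55.2 in the osteoprogenitor-like cluster 17. The genes most like *Pthlh* were *Mab21l2* (r = 0.894), *Wnk2* (0.880), *Lrig3* (0.874), *Ifi27* (0.869) and *Flrt1* (0.855), and *Mab21l2* was at 131 ± 32.4 CPM in the interzone-like cells and 14.8 ± 6.57 in cluster 13.

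The number of chondrocytes with both *Ihh* and *Pth1r* was above the product of their shares, and the number with both *Ihh* and *Pthlh* was below it, which is a description with no test. Of 871 chondrocytes with at least 5000 UMIs, thinned to that depth, 54 had both *Ihh* and *Pth1r* (6.20%, exact 95% interval 4.69 to 8.01%) against 21.9 expected. These were 66.7% of the 81 *Ihh* cells and 23.0% of the 235 *Pth1r* cells. By library the counts were 2 in S1 against 1.55 expected, 7 in S2 against 3.38, 10 in S3 against 3.01 and 35 in S4 against 14.9, so S1 shows little either way. When the product was taken within each cluster and library, 44.8 cells were expected, and within the hypertrophic-like cells 34 of 74 had both against 30.8. The ratio of observed to expected was 2.47 over all chondrocytes and 1.21 within cluster and library.

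*Ihh* and *Pthlh* were found together in 1 chondrocyte of 871 against 5.02 expected from the shares and 1.76 expected within cluster and library. *Pthlh* and *Pth1r* were together in 11 cells against 14.6 expected, and within cluster and library 10.6 were expected. One cell had all 3 genes, and 305 cells (35.02%) had at least 1 of them. By condition, *Ihh* and *Pth1r* were together in 32 cells against 12.54 expected in Pan-Cart-p21MOE (ratio 2.55) and 22 against 9.29 in control (ratio 2.37), a difference that was not tested.

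**Figure D3:**
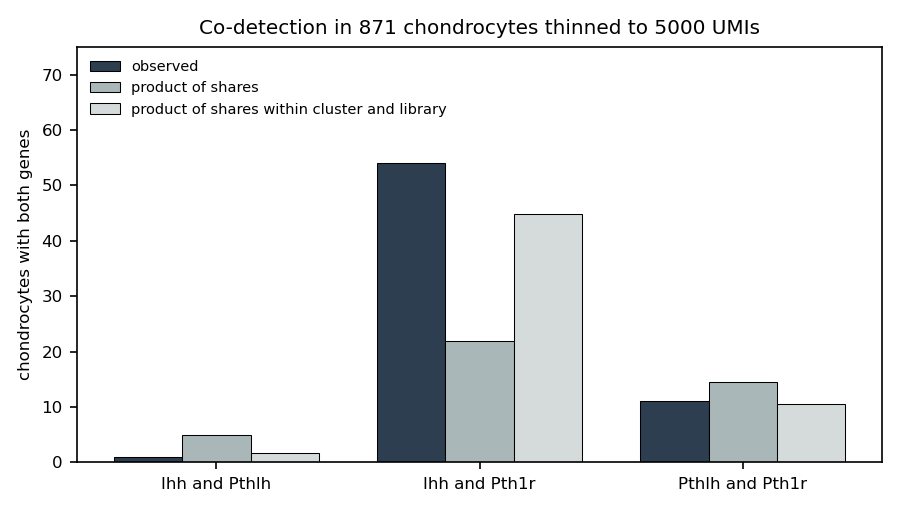
Number of chondrocytes (y axis) with at least 1 UMI of both genes of a pair (x axis) among 871 cells thinned to 5000 UMIs, beside the number expected from the product of the shares over all cells and within each cluster and library. The bar for *Ihh* and *Pth1r* (54 cells) is above both expectations (21.9 and 44.8), and the bars for the other pairs are at or below 11.

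Other genes of both signalling arms were also read by class. Of 14 genes of the hedgehog arm, 7 had their highest mean among the named classes in the interzone-like cells, among them the transcription factors *Gli2* (160 ± 20.7 CPM) and *Gli3* (527 ± 60.0) and the co-receptor *Gas1* (1003 ± 256). A further 5 were highest in the osteoprogenitor-like cells, among them the hedgehog targets *Ptch1* (542 ± 138, next the perichondrium-like cells at 370) and *Gli1* (32.9 ± 6.98, next the perichondrium-like cells at 28.7). *Ptch1* was at 222 CPM in the proliferative-like chondrocytes, 154 in the hypertrophic-like and 119 in the resting-like. Of 22 genes of the PTHrP arm, 5 each were highest in the interzone-like, the limb mesenchyme-like and the osteoprogenitor-like cells, 4 in the perichondrium-like, 2 in the hypertrophic-like and 1 in the proliferative-like. *Runx2*, a factor needed for osteoblasts and for hypertrophy, was at 1625 ± 288 CPM in the osteoprogenitor-like cells and 283 in the hypertrophic-like cells. *Mef2c*, another driver of hypertrophy, was at 1219 ± 255 and 796. The other ligands and receptors of the families, *Shh*, *Dhh*, *Pth* and *Pth2*, had means of at most 1.35 CPM in every named class with values in 3 or more libraries, and *Pth2r* reached 10.4 ± 8.58 in the proliferative-like chondrocytes.

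None of the 3 genes passed the test between Pan-Cart-p21MOE and control in all chondrocytes, where 29 of 12087 genes tested did (0.24%, adjusted p under 0.05 in either direction, edgeR). *Ihh* was 35.2, 50.8, 23.0 and 44.6 CPM in the Pan-Cart-p21MOE cells of S1 to S4 and 11.9, 33.4, 33.0 and 100 in the control cells. The groups overlapped, and the S4 control cells had the highest value. The log2 difference was −0.20 ± 0.355 SE (adjusted p = 0.929), and 0.35 without the S4 control cells. *Pthlh* was 9.70, 10.4, 15.9 and 8.03 CPM against 5.97, 15.7, 18.7 and 5.77, overlapping, with a difference of −0.10 ± 0.377 (adjusted p = 0.985), and 0.27, 0.18 and 0.06 without the S2 control, the S3 control and the S4 Pan-Cart-p21MOE cells. *Pth1r* was 123, 117.2, 81.1 and 138 CPM against 48.3, 89.4, 71.6 and 197, with a difference of 0.23 ± 0.257 (adjusted p = 0.857), and 0.61 without the S4 control cells. In such sums a smaller number of cells of one kind and less RNA per cell cannot be told apart.

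The mix of chondrocytes differed beside these sums. Cluster 7 was 10.4 to 15.9% of the Pan-Cart-p21MOE chondrocytes and 19.2 to 31.3% of the control chondrocytes, with no overlap. Its Pan-Cart-p21MOE shares rest on 5 of 48 cells in S1 and 5 of 32 in S2. The hypertrophic-like cells were 4.17 to 18.8% and 0 to 16.2%. The part of this mix in the results was not tested. In S1 the Pan-Cart-p21MOE chondrocytes held 2 hypertrophic-like cells with 205582 UMIs between them, and without these *Ihh* was 8.31 CPM there and *Pth1r* 45.7. With the hypertrophic-like cells left out of every sample, the difference of *Ihh* was −0.87 ± 0.364 SE (adjusted p = 0.563) and that of *Pth1r* −0.37 ± 0.191 (adjusted p = 0.674), where 0.215% of genes passed. Over all 2855 cells, where 0.02% passed, *Ihh* differed by −0.28 ± 0.355 (adjusted p = 0.943), *Pthlh* by −0.26 ± 0.187 (adjusted p = 0.888) and *Pth1r* by −0.04 ± 0.188 (adjusted p = 1.000). Without the S4 control cells the all-cell differences were 0.27 for *Ihh* and 0.22 for *Pth1r*, and without the S2 Pan-Cart-p21MOE cells that of *Pth1r* was 0.06.

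In the proliferative-like chondrocytes *Ihh* was 8.26, 25.8, 7.79 and 28.1 CPM in the Pan-Cart-p21MOE cells of S1 to S4 and 21.1, 37.2, 5.95 and 96.3 in the control cells, lower in 3 of 4 libraries. Its difference of −1.14 ± 0.365 SE did not pass (adjusted p = 0.292, edgeR), where 29 of 10750 genes did (0.27%). *Pth1r* was 46.5, 54.2, 53.3 and 67.0 CPM against 59.5, 98.2, 45.0 and 147, with the same 3 libraries lower and a difference of −0.56 ± 0.216 (adjusted p = 0.425). *Pthlh* differed by 0.28 ± 0.375 (adjusted p = 0.902). The S4 control cells set much of these sizes, since without them the differences were −0.60 for *Ihh* and −0.33 for *Pth1r*. Cluster 7 held 79 of the 292 Pan-Cart-p21MOE and 84 of the 189 control cells of this class. Within cluster 7 alone *Ihh* was 25.4, 61.4, 24.6 and 55.4 CPM against 29.0, 66.0, 12.4 and 140, and the difference was −0.49 ± 0.345 (adjusted p = 0.843, 0.0848% of genes passed). The S1 and S2 Pan-Cart-p21MOE values in cluster 7 rest on 5 cells each. Within cluster 2 alone *Pth1r* differed by −0.22 ± 0.226 (adjusted p = 0.828) and *Pthlh* by 0.0089 ± 0.366 (adjusted p = 1, 0.0339% of genes passed), and *Ihh* was too low to be tested.

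In the hypertrophic-like cells *Ihh* was 177, 174 and 200 CPM in Pan-Cart-p21MOE (S2, S3, S4) and 213 and 264 in control (S2, S4), with both control values above the other 3. The other samples held at most 2 such cells and were left out of the fit, which gave −0.50 ± 0.424 SE (adjusted p = 0.939, 0.177% of genes passed). *Pth1r* was 389, 358 and 643 CPM against 376 and 701, overlapping, with a difference of −0.23 ± 0.414 (adjusted p = 0.959), and 0.42 without the S4 control or 0.10 without the S2 Pan-Cart-p21MOE cells. *Pthlh* was at 0 to 3.41 CPM and was not tested there. In the resting-like chondrocytes *Pthlh* was 14.7, 17.1, 22.4 and 10.1 CPM against 6.54, 24.2, 38.8 and 12.6, with a difference of −0.36 ± 0.453 (adjusted p = 1.000), and 0.03 without the S3 control cells. *Pth1r* differed by 0.29 ± 0.228 there (adjusted p = 1.000). No gene passed in this class (0%), with 216 of 8316 at an unadjusted p under 0.05, and DESeq2 called 2. In the interzone-like cells *Pthlh* was 46.8, 34.1, 39.1 and 28.6 CPM in the Pan-Cart-p21MOE cells and 69.7, 52.9, 30.1 and 54.8 in the control cells, lower in 3 of 4 libraries. These values rest on 6 to 30 UMIs each, the difference of −0.56 ± 0.328 did not pass (adjusted p = 0.957), and no gene did (0%, 300 of 6114 at an unadjusted p under 0.05). The plot of the conditions shows the S4 control cells as the highest *Ihh* and *Pth1r* values in all chondrocytes, proliferative-like and hypertrophic-like cells. In the resting-like cells, which it leaves out, they were not. There *Ihh* was 8.41, 12.8, 5.74 and 14.97 CPM in the Pan-Cart-p21MOE cells of S1 to S4. The control cells had 1.09, 11.3, 0 and 6.28 CPM, lower in every library. These values rest on 3 to 40 UMIs and 0 to 14 UMIs, and *Ihh* was too low to be tested in this class.

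**Figure D4:**
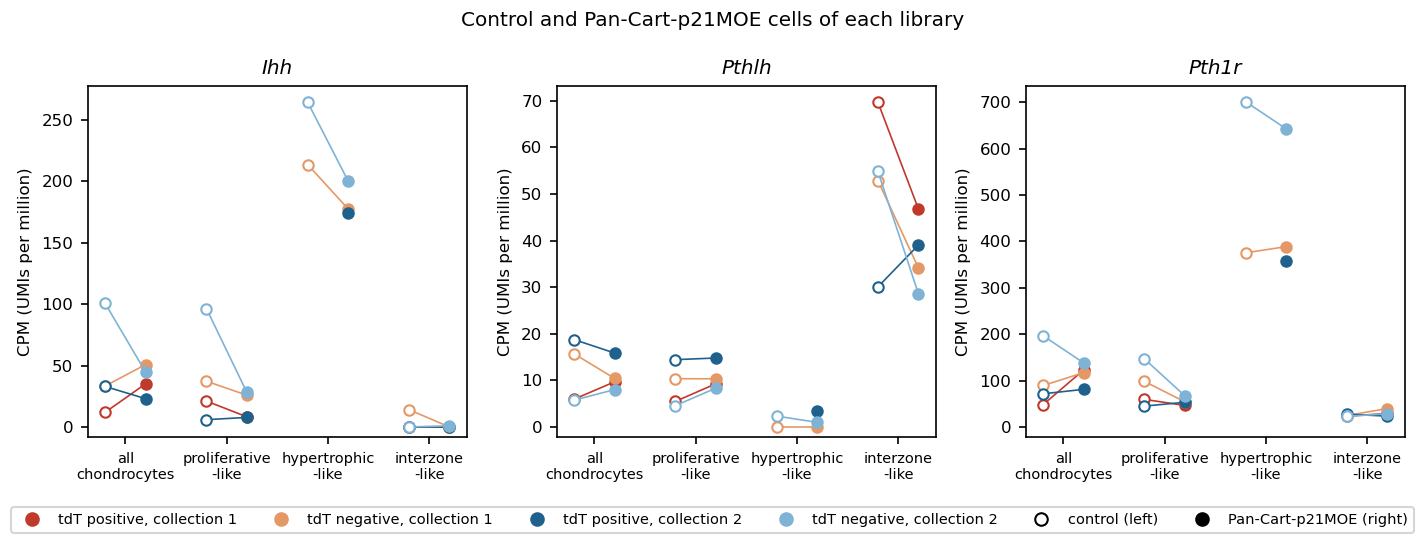
Level of each gene in CPM (y axis) in the control (open points) and Pan-Cart-p21MOE (filled points) cells of each library, for 4 sets of cells (x axis). Lines join the cells of 1 library, and samples under 5 cells have no point. *Ihh* in the proliferative-like cells runs from 5.95 to 96.3 CPM in control and from 7.79 to 28.1 in Pan-Cart-p21MOE.

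The share of chondrocytes with a UMI did not pass the test for any of the 3 genes. After thinning to 5000 UMIs, *Ihh* was found in 9.15 ± 5.47% of Pan-Cart-p21MOE and 9.76 ± 7.37% of control chondrocytes (SD, n = 4 each, two-sided exact permutation p = 0.886). The shares of *Pthlh* were 4.43 ± 3.52% and 6.73 ± 2.16% (exact permutation p = 0.286), and those of *Pth1r* 27.2 ± 6.95% and 26.3 ± 8.11% (exact permutation p = 0.886). The smallest p that 4 against 4 samples can give is 0.0286. The 3 raw p-values are the whole family, and with Benjamini-Hochberg adjustment none is below 0.857.

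No gene of the pathway lists passed in any of these comparisons. In all chondrocytes, 13 of 14 hedgehog arm genes were tested, with 8 above and 5 below 0 and a median log2 difference of 0.05, beside −0.0053 over all genes, and 1 had an unadjusted p under 0.05. The 2 with the lowest p were *Sufu*, an inhibitor of the pathway, at −0.44 ± 0.184 SE (adjusted p = 0.508) and *Smo*, the signal transducer, at 0.29 ± 0.145 (adjusted p = 0.586). Of the PTHrP arm, 20 of 22 genes were tested, with 11 above and 9 below 0 and a median of 0.04, and none had an unadjusted p under 0.05. The kinase gene *Sik3* differed by −0.35 ± 0.170 (adjusted p = 0.561) and *Sik1* by 0.58 ± 0.323 (adjusted p = 0.645). In the proliferative-like cells *Sik3* differed by −0.44 ± 0.141 (adjusted p = 0.292). In the hypertrophic-like cells the fit held S2, S3 and S4 against S2 and S4, and 7 of the 14 hedgehog arm genes were tested. All 7 were above 0, with a median of 0.42 beside 0.014 over all genes. *Ptch1*, the hedgehog receptor and target, differed by 0.94 ± 0.475 (adjusted p = 0.871). Of the PTHrP arm 16 of 18 were above 0 there, with a median of 0.31, and *Gnaq*, a G protein that the receptor can also use, had the lowest p (1.88 ± 0.530, adjusted p = 0.191). In cluster 7 all 9 hedgehog arm genes tested were below 0, with a median of −0.36 beside 0.0026 over all genes, and *Gli3* differed by −0.47 ± 0.200 (adjusted p = 0.670). Whether a list moved as a set was not tested, and the share of all genes on each side of 0 was not counted.

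Between the sorted fractions *Ihh* was lower in the tdT positive chondrocytes of every pool. It did not pass in the main fit, which left out the embryo pool, and passed with the pool in the model. *Ihh* was 35.2 and 23.0 CPM in the tdT positive and 50.8 and 44.6 in the tdT negative Pan-Cart-p21MOE cells, and 11.9 and 33.0 against 33.4 and 100 in the control cells, lower in 4 of 4 embryo pools. Without the pool in the model the log2 difference was −1.19 ± 0.357 SE (adjusted p = 1.000, edgeR), where 2 of 12087 genes passed (0.0165%). The fractions of a pool share embryos, and with the embryo pool as a block *Ihh* passed, at −1.17 ± 0.162 (adjusted p = 0.0140), where 28 of 12567 genes did (0.223%). The block treats the 4 pools as separate, although 2 pools were run together in S1 and S2 and 2 in S3 and S4. Each library holds a single fraction, so the fit cannot part fraction from library. *Pth1r* was lower in 3 of 4 pools and differed by −0.83 ± 0.258 (adjusted p = 1.000), or −0.82 ± 0.171 with the block (adjusted p = 0.125). Without the S4 control cells the unblocked differences were −0.72 for *Ihh* and −0.48 for *Pth1r*. *Pthlh* differed by 0.41 ± 0.378 (adjusted p = 1.000).

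The hypertrophic-like cells were fewer in the tdT positive libraries, with 2 of 121 chondrocytes in S1 and 15 of 256 in S3 against 18 of 170 in S2 and 56 of 395 in S4. The hypertrophic markers summed to 13.4 to 157 CPM in the tdT positive and 230 to 667 in the tdT negative chondrocyte samples. With that cluster left out *Ihh* was 4.41 to 11.9 CPM in the tdT positive and 20.9 to 77.4 in the tdT negative samples, with no overlap. The remaining chondrocytes also lay in different clusters: cluster 2, low in *Ihh*, was 39.7 and 46.9% of the chondrocytes of S1 and S3 and 23.5 and 27.8% of those of S2 and S4, and cluster 7 was 15.7 and 13.3% against 18.8 and 19.7%. The part of this mix in the difference was not tested. The difference there was −2.13 ± 0.369 SE (adjusted p = 0.149, 0.00828% of genes passed). With the pool as a block it was −2.03 ± 0.329 (adjusted p = 0.0398, 0.0949% of genes passed). *Pth1r* was 45.7 to 52.1 CPM against 53.1 to 125, with a blocked difference of −0.74 ± 0.158 (adjusted p = 0.200). Within cluster 7 *Ihh* was 12.4 to 29.0 CPM against 55.4 to 140, again without overlap, and its difference of −1.76 ± 0.349 did not pass (adjusted p = 0.532, and 0.417 with the block). The S1 and S2 Pan-Cart-p21MOE samples there held 5 cells each. The low-UMI barcodes also held less *Ihh* in the tdT positive libraries (8.05 and 7.27 CPM) than in the tdT negative ones (29.5 and 22.0), and the part of that in the difference was not tested.

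**Figure D5:**
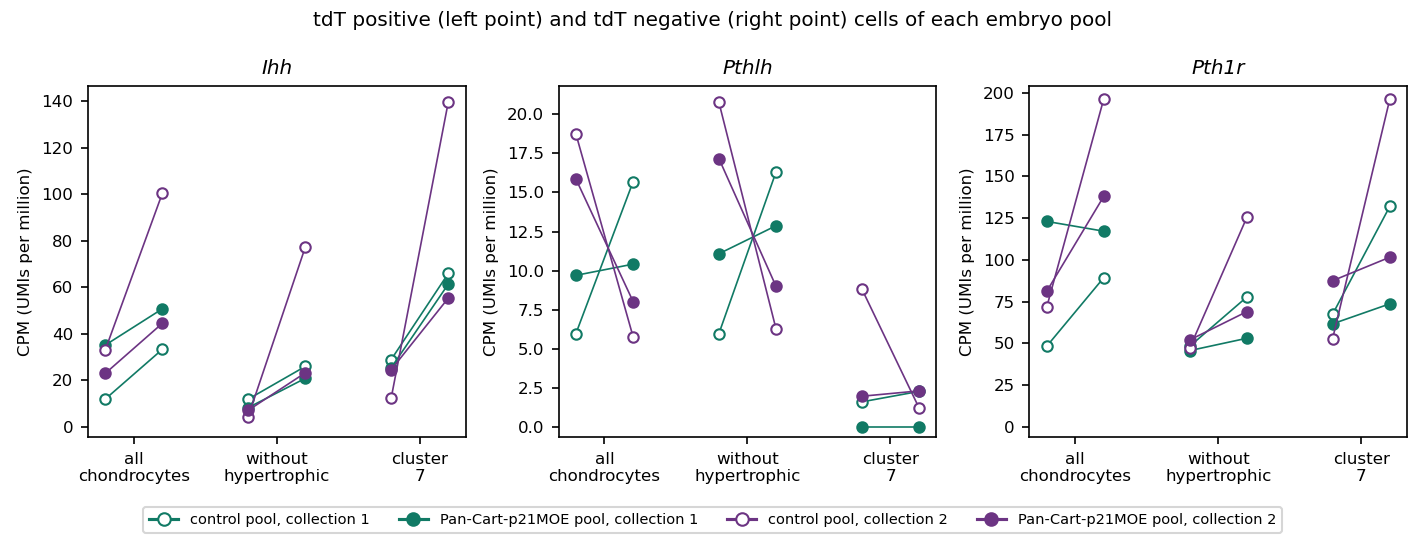
Level of each gene in CPM (y axis) in the tdT positive (left) and tdT negative (right) cells of each embryo pool, for all chondrocytes, chondrocytes without the hypertrophic-like cluster and cluster 7 (x axis). Lines join the fractions of 1 pool. *Ihh* is lower in the tdT positive cells of every pool in all 3 sets, at 12.4 to 29.0 against 55.4 to 140 CPM in cluster 7.

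Whether the difference between the conditions depended on the fraction was tested by an interaction, which no member passed. In the fit with an interaction of condition and fraction in all chondrocytes, *Ihh* had 0.83 ± 0.701 SE, *Pth1r* 0.87 ± 0.471 and *Pthlh* 0.43 ± 0.777, each with an adjusted p of 1.000. No gene passed (0%, edgeR), with 247 of 12567 at an unadjusted p under 0.05, and DESeq2 also called 0. Without the S4 control cells the value for *Ihh* was −0.16, and that for *Pthlh* was −0.17, −0.45 and −0.08 without the S1 control, the S2 control and the S3 Pan-Cart-p21MOE cells. No gene of the pathway lists passed between the fractions without the block or in the interaction, with 2 and 1 at an unadjusted p under 0.05.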

How the data were processed

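The authors aligned the reads to GRCm38 with added transgene sequences in Cell Ranger 7.2.0 (the version is also in the submitters' processing notes) and deposited the raw UMI counts as 1 gene by barcode matrix per library. The study's methods also name tools for ambient RNA and doublets, but the deposited matrices still held 1751 to 4906 barcodes under 1000 UMIs each, so no correction was assumed.

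Barcodes were kept from 1000 UMIs, 500 genes and at most 10% mitochondrial UMIs, leaving 6873. Sex, and with it condition, was called from *Xist* and 4 Y-linked genes at 2 or more UMIs with at least 80% on one side. Most barcodes lost at this step had no sex called: 178 of 706 in S1, 349 of 772 in S2, 455 of 1483 in S3 and 2747 of 3912 in S4. Barcodes of both sexes (175) were also left out. So was the top 5% by Scrublet score in cells from 3000 UMIs (140 of 3640 scored, where the tool's own threshold called 7). In all 2855 cells remained, with medians by library of 17333.5 to 27554.5 UMIs. Clustering used scanpy 1.11.5 on 2000 variable genes and 30 principal components (Leiden resolution 1), without the 3 genes, the pathway lists, the transgenes, sex genes or 348 genes that followed the cell cycle. Clusters were named from marker lists at a score of 0.5 with at least 3 markers. The thresholds of the naming were set after the clusters were seen, and names may differ from those of the study.

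Levels are CPM, UMIs per 1000000 UMIs of the summed cells. Tests used edgeR 4.0.16 (quasi-likelihood, TMM) in R 4.3.3 on counts summed per library and condition for at least 5 cells, with the fraction in the model and Benjamini-Hochberg adjustment over all genes tested at 0.05. DESeq2 1.42.0 was an alternative. The tests were also run on simulated data with 200 changed genes, drawn independently for each summed sample. Those data held no effect of shared embryos, so the run cannot check that limit. Shares were taken after thinning to 5000 UMIs, with exact Clopper-Pearson 95% intervals, and a share of 0 allows up to 3 cells of the total. Intervals cover counting error only. Likeness between genes was Pearson's r of log2(CPM + 1) over clusters for genes that reach 10 CPM, with 5 genes named for each member. Of each pathway list, the 2 genes of lowest p per comparison were open to naming, and members were always given. The members, lists and tests were chosen with earlier results of these data known.

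For the fractions, the tdT positive and tdT negative cells of a pool come from the same embryos by the study's methods. Their deviations from the group means correlated in every pool (r = 0.109 to 0.354), so the pool was used as a block in an alternative fit. Pools also share libraries, which this block does not cover.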

Additional observations from a re-analysis of the deposited data

Results flagged for a closer look

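*Ihh* in the interzone-like cells was 8.71 CPM in S2, far above the other 3 libraries by Dixon's ratio, and *Pthlh* in the limb mesenchyme-like cells was 9.95 CPM in S3, in the same way. The interzone-like value of S2 rests on 4 UMIs in 3 of 29 cells, against 0 or 1 UMI in each other library. The low-UMI barcodes of S2 held 29.5 CPM of *Ihh*. Of 60 groups of 4 libraries that were tested, 2 stood out, where chance gives about 1 in 20.

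Over all cells, the Pan-Cart-p21MOE minus control difference of *Ihh* was positive in both tdT positive libraries (4.26 CPM in S1 and 0.961 in S3, mean 2.61) and negative in both tdT negative libraries (−1.33 in S2 and −31.9 in S4, mean −16.6). Of the 65 *Ihh* UMIs of the S1 Pan-Cart-p21MOE cells, 46 were in 2 hypertrophic-like cells. In chondrocytes without the hypertrophic-like cluster, *Ihh* was 8.31 CPM against 11.9 in control in S1, and 7.155 against 4.41 in S3. In the perichondrium-like cells the difference of *Pthlh* was 1.05 and 3.39 CPM in S1 and S3 (mean 2.22) and −11.0 and −1.97 in S2 and S4 (mean −6.49). The S2 value is 0 UMIs in 11 cells against 3 UMIs in 10 control cells, and the S4 value is 3 UMIs against 3. Both cases were picked for this pattern of signs among several genes and sets of cells, and how often chance gives it was not tested. Neither difference between the fractions was tested in these sets of cells. The interaction tested in the chondrocytes did not pass for *Ihh* (adjusted p = 1.000, edgeR).

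Barcodes under 1000 UMIs, which enter no comparison, held *Ihh* at 13.7 CPM, *Pthlh* at 11.5 CPM and *Pth1r* at 69.2 CPM over the 4 libraries. Whether they are RNA from outside cells or cells of low quality was not tested.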

How the results depend on the processing

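No setting moved a member past the threshold between the conditions except the fit with no filter on low counts, which called *Ihh* in the proliferative-like cells (1 of the 3 members). Without the filter the genes called were 357 in all chondrocytes (29 with it), 417 in all cells (3), 30 in resting-like (0), 367 in proliferative-like (29) and 33 in hypertrophic-like cells (14), 144 between the fractions (2, with 2 members) and 29 in the interaction (0). DESeq2 called 111 in all chondrocytes, 44 in all cells, 2 in resting-like, 100 in proliferative-like cells and 10 between the fractions. With fractions of a pool summed the counts were 4 in all chondrocytes and 0 in all cells, and with no fraction in the model 0 in all cells and 4 in hypertrophic-like cells. The cause was not tested.

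With the library as a replicate block, 13 genes were called in all chondrocytes and 13 in proliferative-like cells, and *Pthlh* in all chondrocytes changed sign to 0.025. The conditions of a library were run together, so they share the library, the sorted fraction and the collection but not embryos. Their deviations did not correlate (r = −0.050 to 0.033). With the embryo pool as a block, 28 genes and 1 member passed between the fractions, and 1 member with the hypertrophic-like cells left out. The block changed no other member's call.

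*Pth1r* in all chondrocytes reversed to −0.0069 with fractions summed and to −0.37 without the hypertrophic-like cells, and *Pthlh* over all cells was 0.084 in perichondrium-like cells alone. Leaving out 1 sample at a time, which was done without the pool block, gave 3 to 25 genes in all chondrocytes, 1 to 4 in all cells, 0 to 1 in resting-like, 3 to 36 in proliferative-like and 4 to 88 in hypertrophic-like cells, 1 to 3 between the fractions and 0 to 3 in the interaction. The log2 differences ran from −0.47 to 0.35 for *Ihh* and −0.42 to 0.27 for *Pthlh* in all chondrocytes, −0.55 to 0.27 for *Ihh* and −0.17 to 0.22 for *Pth1r* in all cells, −0.85 to 0.031 for *Pthlh* in resting-like cells and −0.70 to 0.42 for *Pth1r* in hypertrophic-like cells. In the interaction they ran from −0.16 to 1.72 for *Ihh* and −0.45 to 1.46 for *Pthlh*.

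At Leiden resolution 0.5 the hypertrophic-like cells joined the proliferative-like class, whose *Ihh* was then 97.8 CPM and *Pth1r* 215. That class then held 227 cells, against 481 at resolution 1, so most of its earlier cells had also left it. The tests between the conditions used the classes of resolution 1 only. At resolution 2, 144 perichondrium-like cells joined the osteoprogenitor-like class, whose *Pth1r* was then 121 CPM. *Ihh* with *Pth1r* was in 11.7% of chondrocytes at 10000 UMIs, 20.1% with no thinning and 1.26% at 2 or more UMIs, *Ihh* with *Pthlh* in 0, 2.12 and 0%, and *Pthlh* with *Pth1r* in 3.45, 12.1 and 0.23%. Without 1 library the first ran from 3.72 to 7.04% and the second from 0 to 0.16%. The share difference between the conditions was 0.628 points for *Ihh*, 0.535 for *Pthlh* and −3.04 for *Pth1r* at 10000 UMIs, and 0.742 for *Ihh*, 3.87 for *Pthlh* and 6.63 for *Pth1r* (exact permutation p = 0.286) with no thinning. Without 1 sample it ran from −2.94 to 3.02 points for *Ihh* and −1.90 to 4.04 for *Pth1r*. Depth limits *Pthlh* most, with 894 UMIs in 2855 cells.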
